A study of Mus musculus with 5 samples.

Results

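Microtubules are polymers of a dimer of alpha and beta tubulin, and mammals carry several genes, the isotypes, for each subunit. The 10 isotype genes described here are the 4 alpha tubulins Tuba1a, Tuba1b, Tuba1c and Tuba4a and the 6 beta tubulins Tubb2a, Tubb2b, Tubb3, Tubb4b, Tubb5 and Tubb6. They were taken by gene symbol from the 24062 genes of a count table of mouse mitral valve leaflets. All 10 had reads and all 10 passed the filter on low counts, which left 14244 genes. None of the 10 differed between Ift88 knockout and wild-type leaflets at an adjusted p under 0.05 (edgeR's quasi-likelihood test with Benjamini-Hochberg adjustment). Of all 14244 genes 0 passed (0.0%), Ift88 included, so this result is not particular to tubulin.

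Ift88 codes for a subunit of the transport trains that build and maintain cilia, whose shaft is made of microtubules. The table holds 5 RNA-seq libraries, 2 titled WT and 3 titled KO, and their values are given throughout in the order WT 1, WT 2, KO 1, KO 2, KO 3. Every library is labelled as carrying NfatC1Cre, a recombinase expressed in the endocardial lineage, so cells of other lineages in a leaflet would keep their Ift88. The genotype field gives the floxed allele Ift88f/f to the WT libraries and Ift88+/+ to the KO libraries, which is the reverse of what the titles lead a reader to expect, and the groups here follow the titles. Ages and sexes were not given, and no label says whether the libraries come from separate or pooled animals, so every p-value rests on the spread of these libraries alone, and that spread may be technical.

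The libraries held between 23361414 and 53789026 counted reads. Levels are CPM, counts scaled to a common library size, with sizes adjusted by TMM, a method that sets the bulk of genes level between libraries. Ift88 stood at 7.54, 19.8, 3.001, 3.92 and 0.409 CPM, so all KO libraries lay below both WT libraries, with a log2 fold change of -2.48 (standard error, SE, 1.13; edgeR adjusted p = 0.810). The WT libraries differed from each other in their summed levels of cell type markers. The 15 cardiomyocyte markers summed to 75750 CPM in WT 1 and 121 CPM in WT 2, against 30269 to 41469 CPM in the KO libraries. The 12 markers of valve interstitial cells summed to 2998 and 8175 CPM in WT and 8546 to 12233 CPM in KO, and the 13 endothelial markers to 418 and 3488 CPM in WT and 2190 to 3466 CPM in KO. In such bulk samples fewer cells of a type and less RNA per cell cannot be told apart.

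Each dimer takes 1 alpha and 1 beta chain, and the cell limits their supply in part by destroying tubulin messenger RNA when free dimer accumulates. A factor named TTC5 starts this decay when it binds the first residues of a tubulin chain as it leaves the ribosome. The isotypes differ mostly in their tails, the last residues of the chain, which lie on the outside of the microtubule. The tails are rich in glutamate, to which enzymes add chains of glutamate or glycine, marks that are abundant on cilia. Most alpha tubulins end in tyrosine, which enzymes can remove and put back, and a lysine of alpha tubulin inside the microtubule is acetylated in stable microtubules and cilia. Tuba1a, Tubb2b and Tubb3 are best known from the nervous system, Tubb4b from cilia, and Tubb5 and Tuba1b from dividing cells.

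The first 30 coding bases show the stretch that autoregulation reads, with the first 4 codons in capitals (GENCODE M21 annotation, build GRCm38, each 5′ to 3′ on its gene's strand). All 4 alpha genes encoded the alpha form of this motif and all 6 beta genes the beta form, with different bases.
Tuba1a: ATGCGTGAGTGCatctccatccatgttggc
Tuba4a: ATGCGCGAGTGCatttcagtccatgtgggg
Tubb2a: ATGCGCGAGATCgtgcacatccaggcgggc
Tubb2b: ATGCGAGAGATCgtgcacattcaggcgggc
Tubb5: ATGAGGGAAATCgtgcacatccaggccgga
The last 60 coding bases, without the stop codon, are shown for Tuba4a and 5 beta genes because they encode the tails by which isotypes differ, with the last codon in capitals.
Tuba4a: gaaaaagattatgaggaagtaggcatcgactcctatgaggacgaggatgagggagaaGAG
Tubb2a: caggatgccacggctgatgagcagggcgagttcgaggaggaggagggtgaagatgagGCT
Tubb2b: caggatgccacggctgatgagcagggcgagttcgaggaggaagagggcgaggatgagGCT
Tubb3: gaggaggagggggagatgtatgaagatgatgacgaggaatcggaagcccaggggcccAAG
Tubb4b: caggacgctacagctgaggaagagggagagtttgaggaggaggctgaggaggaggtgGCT
Tubb5: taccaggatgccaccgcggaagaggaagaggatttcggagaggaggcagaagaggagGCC
Tuba4a ends in a glutamate codon and so does not encode a final tyrosine. All 4 alpha genes carry a lysine codon at codon 40, the acetylated residue. Of the last 20 codons, glutamate took 10 in Tubb4b, 9 in Tubb5, and 8 in Tuba4a, Tubb2a, Tubb2b and Tubb3.

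Some isotypes are alike over most of their length, as the printed ends of Tubb2a and Tubb2b show, which limits how their reads can be told apart. Over the whole coding sequence Tuba1a and Tuba1b were 98.3% identical at the base level and Tubb2a and Tubb2b 96.5%, whereas Tuba4a matched the other alpha genes at 84.8 to 85.2%. Of the 50-base words in the transcript, 75.5% in Tuba1a, 83.1% in Tuba1b and 61.0% in Tuba1c also occurred in the transcript of another gene, among them each other's and those of pseudogenes. The share was 49.6% in Tubb2a, 39.3% in Tubb2b and 55.5% in Tubb4b, the last mainly with the pseudogene Tubb4b-ps1. It was 48.8% in Tuba4a, where 1330 of 2791 words were shared with Stk16, a gene that overlaps Tuba4a on the opposite strand. Tubb3 and Tubb6 shared 0% and Tubb5 0.12%. With words of 100 bases the Tuba1 genes still shared 53.4 to 73.0%, so split or lost reads make their separate values uncertain, while Tubb3, Tubb5 and Tubb6 shared none.

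**Figure D1:**
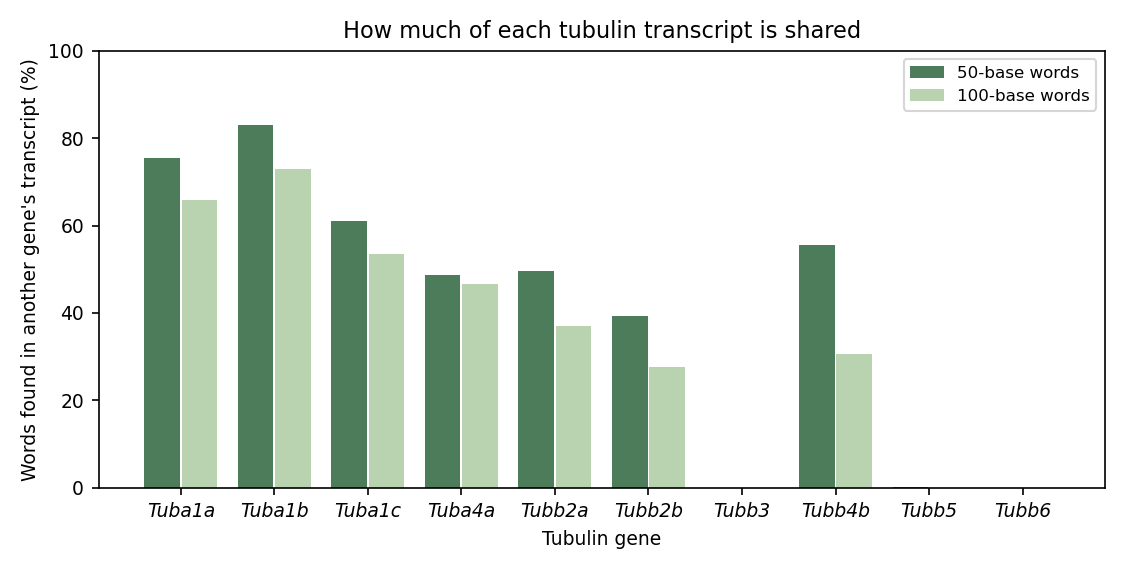
Share of each isotype's transcript words (percent, y axis) that also occur in another gene's transcript, for words of 50 and of 100 bases. The 3 Tuba1 genes have the highest shares, and Tubb3, Tubb5 and Tubb6 lie at or near 0.

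In GRCm38 the 3 Tuba1 genes form a cluster on chromosome 15, with Tuba1b at 98931425 to 98934565 and Tuba1a at 98949837 to 98953703 on the minus strand and Tuba1c at 99029891 to 99038110 on the plus strand. Tubb2a (34074274 to 34078007) and Tubb2b (34126748 to 34130466) lie side by side on chromosome 13. Tuba4a lies on chromosome 1 at 75214228 to 75219865, Tubb4b on chromosome 2 at 25222160 to 25224702 and Tubb5 on chromosome 17 at 35833921 to 35838306. Tubb3 lies on chromosome 8 at 123411424 to 123422015 and Tubb6 on chromosome 18 at 67390717 to 67402749. All 10 transcripts have 4 exons, and the reads were counted over genes and not over single exons. The library kit does not mark strand, so reads from Tuba4a and Stk16, or from Tubb4b and its opposite-strand neighbour Fam166a, cannot be told apart where the genes overlap.

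Tuba1a was the most abundant isotype of the leaflets per transcript length and Tubb3 the least. Over the 5 libraries Tuba1a had a mean level per kilobase of transcript of 1182 ± 410 CPM (SD), Tuba1b 490 ± 155, Tubb4b 319 ± 43.1 and Tubb5 263 ± 58.3. Tubb6 followed at 143 ± 31.5, Tubb2a at 111 ± 29.8, Tuba1c at 45.6 ± 18.5, Tuba4a at 18.3 ± 13.6, Tubb2b at 11.7 ± 4.87 and Tubb3 at 5.58 ± 3.71. Tuba1a lay above Tuba1b, Tubb5 above Tubb6, Tubb2a above Tuba1c and Tuba1c above Tuba4a in all 5 libraries. The other neighbours in this order, from Tuba1b against Tubb4b to Tubb2b against Tubb3, kept it in 4 of 5 libraries, so their ranks do not hold beyond the spread. On length counted only in 50-base words of no other gene, Tuba1b lay above Tuba1a in WT 1, Tubb2a above Tuba1c held in 4 of 5 libraries, and Tubb6 lay above Tubb2a in 1 of 5.

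**Figure D2:**
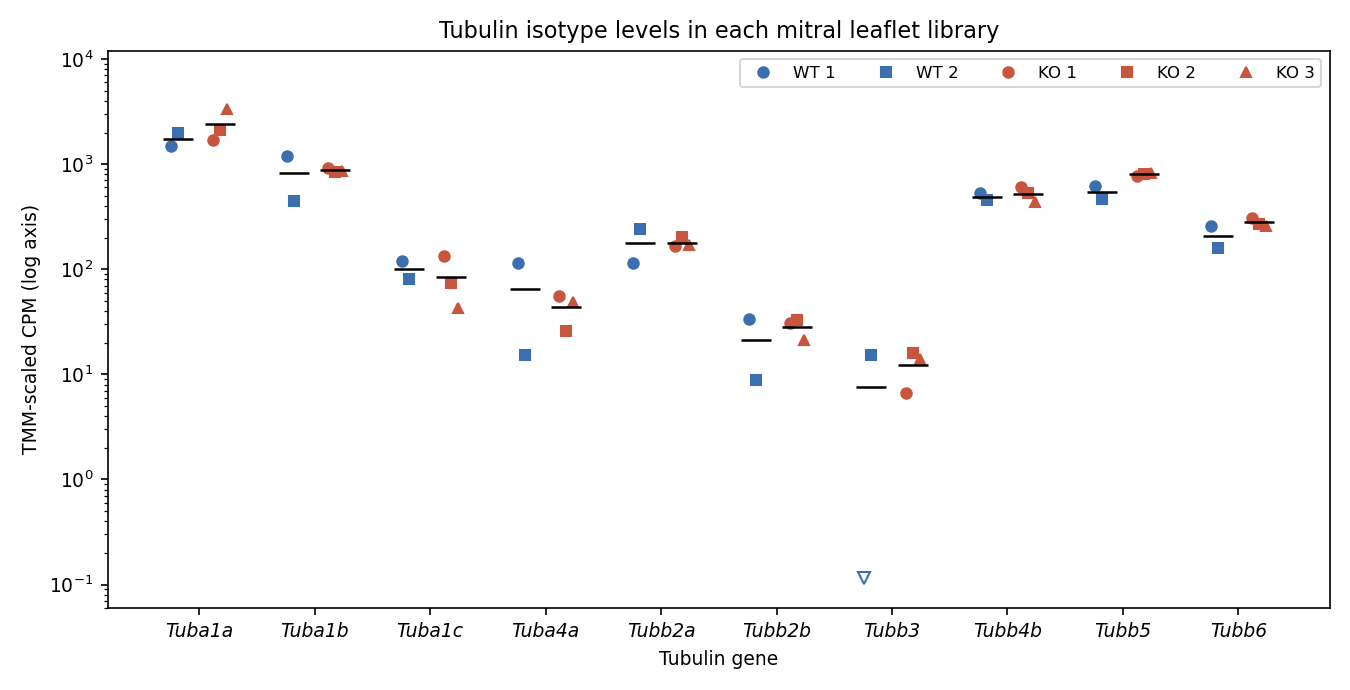
Level of each isotype in every library (TMM-scaled CPM, log axis), with WT libraries in blue, KO libraries in red and black lines at the group means. Every isotype but Tubb5 and Tubb6 has WT and KO libraries that overlap, and the open triangle marks the limit of 0.114 CPM that the 0 reads of Tubb3 in WT 1 allow.

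No alpha isotype separated the groups, and all 4 had WT and KO libraries that overlapped. Tuba1a, the main isotype, stood at 1492, 1981, 1694, 2108 and 3382 CPM. KO 3 was the highest and WT 1 the lowest, and the remaining libraries interleaved. Its WT mean was 1737 ± 346 (SD, n = 2) and its KO mean 2395 ± 880 (SD, n = 3), with a log2 fold change of 0.46 (SE 0.46; edgeR adjusted p = 0.921).

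Tuba1b, the isotype that nearly all cells express, stood at 1204, 447, 913, 844 and 865 CPM. The WT libraries held both the highest and the lowest value, 2.70-fold apart, whereas the KO libraries differed by 1.08-fold and lay between them. The group means of 825 ± 536 and 874 ± 35.5 CPM (SD, n = 2 and 3) gave a log2 fold change of 0.08 (SE 0.49; edgeR adjusted p = 0.991). Its direction rested on 1 library, for without WT 2 the log2 fold change was -0.46.

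Tuba1c, a minor isotype close to both, stood at 120.4, 80.2, 133.5, 74.5 and 42.9 CPM. KO 1 was the highest library and KO 3 the lowest, so the KO group spanned the WT group, with a log2 fold change of -0.26 (SE 0.53; edgeR adjusted p = 0.975). Without WT 1 the value was 0.04 and without KO 3 it was 0.05. Tuba4a, the isotype whose gene lacks the final tyrosine codon and which is known as abundant in muscle and platelets, stood at 114, 15.4, 55.4, 25.6 and 48.9 CPM. Its WT libraries lay 7.41-fold apart, the widest gap among the members with reads in every library. Among the 7233 genes of at least 20 CPM on average, 86.5% had a smaller ratio of highest to lowest library than Tuba4a. The log2 fold change of Tuba4a was -0.58 (SE 0.82; edgeR adjusted p = 0.949), and it was 1.46 without WT 1. Stk16, the gene that shares its locus, stood at 114, 102, 69.6, 54.4 and 93.3 CPM, with WT 2 near WT 1 where Tuba4a was low.

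The spread of Tuba1b and Tuba4a within WT ran beside that of the cardiomyocyte markers. All 5 libraries fell in the same order for Tuba1b, for Tuba4a and for the sum of the 15 cardiomyocyte markers, namely WT 1, KO 1, KO 3, KO 2 and WT 2 from high to low. That sum was 75750, 121, 41469, 30269 and 38534 CPM, of which Actc1, cardiac actin, gave 31260, 27.7, 16193, 14313 and 17613. Of the 15 markers, 1 was at 0 in WT 2 and none in the other libraries. The 26 cell cycle markers summed to 4006, 1490, 2727, 2088 and 1163 CPM, highest in WT 1 and lowest in KO 3, and Tuba1c was high in WT 1 and KO 1 and lowest in KO 3. The pairings of isotypes with marker lists were picked after their values were seen, and the part of these cells in the isotype values was not tested.

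**Figure D3:**
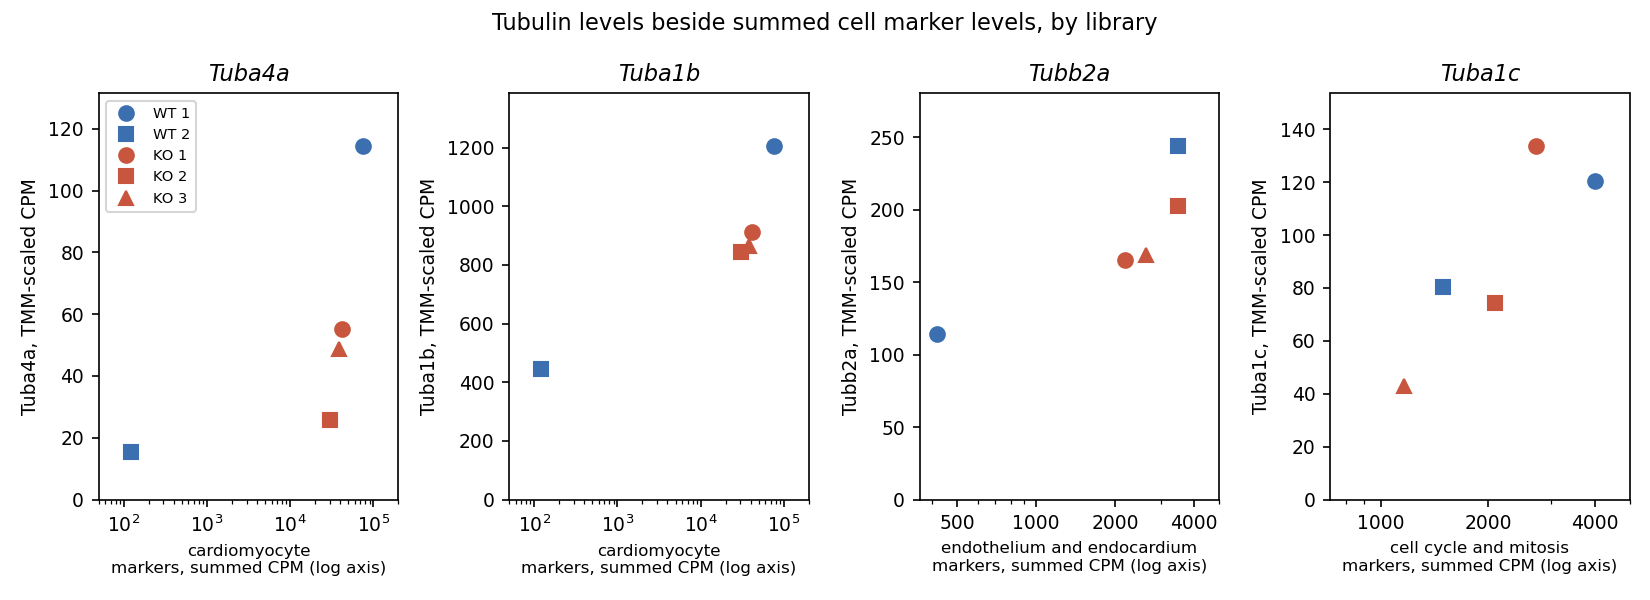
Level of 4 isotypes (y axes, TMM-scaled CPM) against the summed level of a marker list in the same library (x axes, CPM, log axis), with 1 symbol a library. Tuba4a and Tuba1b are highest in WT 1 and lowest in WT 2, as the cardiomyocyte sum is, and Tubb2a is highest in WT 2 and lowest in WT 1, as the endothelial sum is.

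Among the beta isotypes Tubb5 and Tubb6 were the only members whose KO libraries all lay above both WT libraries, by small margins. Such a split, 2 of 10 members, was found in 13.5% of all genes tested. Tubb5, also named class I beta tubulin and present in nearly all cells, stood at 618, 465, 764, 814 and 829 CPM. The lowest KO library thus exceeded the higher WT library. The WT mean was 542 ± 108 (SD, n = 2) and the KO mean 802 ± 34.3 (SD, n = 3), with a log2 fold change of 0.57 (SE 0.34) that did not pass the test (edgeR unadjusted p = 0.147, adjusted p = 0.849). The value kept its direction in every alternative, but was 0.38 without WT 2 and 0.35 in the 3 libraries whose titles share a code (WT 1, KO 1 and KO 2).

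Tubb6, a divergent beta isotype whose excess is known to disturb microtubule arrays, stood at 258.5, 160, 311, 268 and 259.0 CPM. KO 3 exceeded WT 1 by less than 1 CPM, and the log2 fold change of 0.42 (SE 0.35; edgeR adjusted p = 0.901) was 0.11 without WT 2. Tubb4b, the isotype best known from cilia, was the steadiest member. It stood at 526, 451, 608, 529.8 and 437 CPM, with the lowest and the highest library both in KO. Its highest and lowest libraries were 1.39-fold apart, and among the 7233 genes of at least 20 CPM only 3.58% had a smaller ratio, against a median ratio of 2.65. The log2 fold change of Tubb4b was 0.10 (SE 0.34; edgeR adjusted p = 0.984). Fam166a, on the opposite strand of its locus, stood at 62.6, 57.1, 80.4, 70.2 and 0 CPM.

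Tubb2a and Tubb2b, the near-identical neighbours of chromosome 13, moved in opposite ways between the WT libraries. Tubb2a stood at 114, 244, 165, 202 and 169 CPM, with the WT libraries on either side of all KO libraries and equal group means of 179 CPM (SD 91.3, n = 2, and SD 20.5, n = 3). Its log2 fold change was -0.002 (SE 0.41; edgeR adjusted p = 0.9997). Its libraries fell in the order of the summed endothelial markers, which were 418, 3488, 2190, 3466 and 2633 CPM. Whether endothelial content has a part in the level of Tubb2a was not tested. Tubb2b stood at 33.9, 8.77, 31.1, 32.9 and 21.5 CPM, with WT 2 lowest and WT 1 highest, and a log2 fold change of 0.42 (SE 0.66; edgeR adjusted p = 0.958) that was -0.25 without WT 2. The ratio of Tubb2a to Tubb2b per kilobase was accordingly 4.57, 37.6, 7.20, 8.34 and 10.6, widest in WT 2.

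Tubb3, class III beta tubulin and a common marker of neurons, had 0, 881, 210, 684 and 343 reads, or 0, 15.3, 6.63, 16.1 and 14.0 CPM. The 0 reads of WT 1 allow a level of up to 0.114 CPM (3 counts in that library, counting error only), far under the other 4 libraries. The WT group thus held a library without a read and one in the upper part of the KO range, and the log2 fold change of 0.68 (SE 1.89; edgeR adjusted p = 0.984) had a standard error larger than itself. Without WT 1 it was -0.35, and against WT 1 alone the KO mean was at least 107-fold higher, computed against that floor. The sum of the 17 neuron markers did not share this pattern, at 64.4, 79.7, 95.6, 134 and 64.5 CPM. That sum rested on few genes, with Uchl1 at 27.8 and Gap43 at 13.7 CPM in WT 1. Only 5 of the 17 had reads in every library, and Elavl3, Nefh and Rbfox3 were at 0 in every library.

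Across the 10 isotypes, 0 rose or fell in edgeR's quasi-likelihood test at an adjusted p under 0.05, and 0 passed at an unadjusted p under 0.05. Over all 14244 genes, 0 passed the adjusted threshold (0.0%) and 832 the unadjusted one (5.84%). No member had all KO libraries below both WT libraries, a split found in 11.1% of all genes. Fold changes were above 0 for 7 of 10 isotypes and for 49.4% of all genes, and their median was 0.26 against -0.01 over all genes. That median moved with the WT libraries, to 0.50 without WT 1 and 0.05 without WT 2, where the medians over all genes were 0.15 and 0.25. The authors' deposited table, made from the same counts, called 0 of the 10 at an adjusted p under 0.05 and 1.43% of the 12872 genes to which it gives an adjusted p. In the authors' deposited table Tubb5 had a log2 fold change of 0.47 (SE 0.32, adjusted p 0.727) and Tuba1a 0.35 (SE 0.42, adjusted p 0.865).

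**Figure D4:**
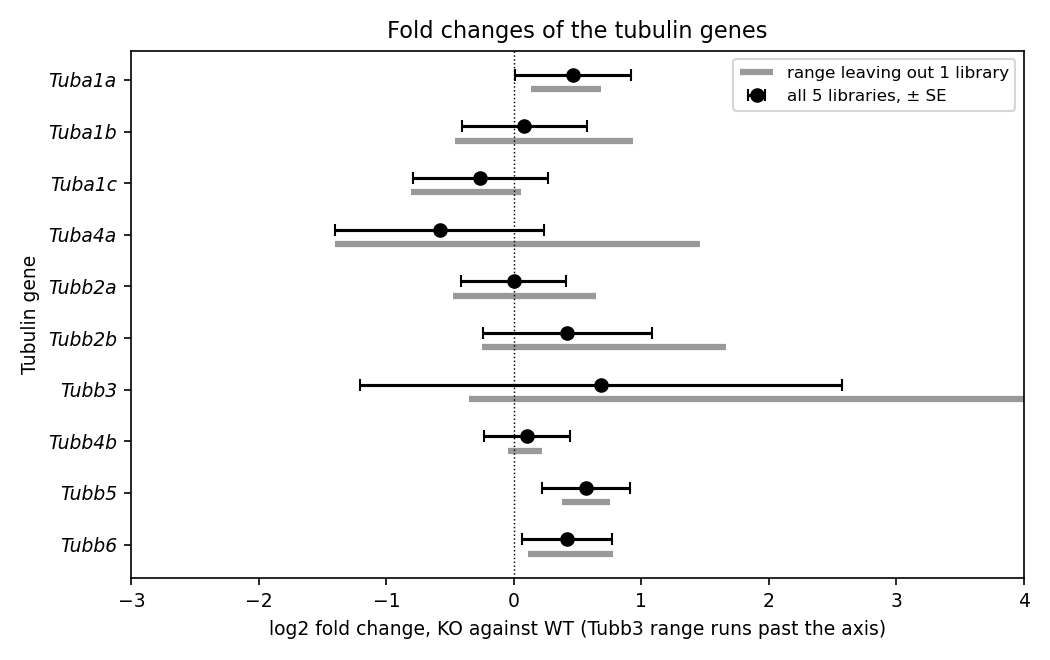
Log2 fold change of each isotype, KO minus WT (x axis), with all 5 libraries (black point, bar for the standard error) and the range of values with 1 library left out (grey bar, which for Tubb3 runs past the axis). The grey bars of Tuba1a, Tubb5 and Tubb6 stay above 0 and those of the other 7 isotypes cross it.

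Summed over isotypes, tubulin reads were somewhat more abundant in the KO libraries. The 6 beta isotypes summed to 1551, 1343, 1885, 1863 and 1729 CPM, so the groups did not overlap, and the KO mean was 1.26 times the WT mean. The 4 alpha isotypes summed to 2931, 2523, 2796, 3052 and 4339 CPM, and here KO 1 lay between the WT libraries. All 10 together gave 4482, 3867, 4681, 4915 and 6069 CPM, again higher in each KO library, with means of 4174 ± 435 in WT (SD, n = 2) and 5222 ± 743 in KO (SD, n = 3). These sums carry no test, since the set was proposed with earlier results of these data in view, and 13.5% of single genes split the same way. The sum of the interstitial cell markers was also higher in each KO library (2998 and 8175 CPM in WT, 8546 to 12233 in KO), and its part in the tubulin sums was not tested. As a share of all counted reads tubulin took 0.375, 0.415, 0.473, 0.517 and 0.634%. The ratio of alpha to beta reads per kilobase was 2.03, 1.97, 1.61, 1.81 and 2.82, above 1 in every library, with the KO libraries on both sides of the WT libraries.

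The make-up of the alpha pool varied more between the WT libraries than between the groups. Tuba1a gave 51.1, 78.4, 60.6, 68.8 and 77.8% of alpha reads per kilobase and Tuba1b 42.7, 18.3, 33.8, 28.5 and 20.6%. The WT libraries held both the highest and the lowest share of each, so the ratio of Tuba1a to Tuba1b was 1.198 in WT 1 and 4.29 in WT 2, with 1.79, 2.41 and 3.78 in KO. Since these genes share most of their 50-base words, the split between them also depends on how the counting treated shared reads.

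In the beta pool the share of Tubb5 was higher in each KO library. Shares of a pool are not independent, and the level of Tubb4b itself was no lower in KO, at group means of 488 and 525 CPM. Tubb5 gave 29.3, 24.7, 29.8, 32.7 and 36.6% of beta reads per kilobase, and KO 1 exceeded WT 1 by under 1 percentage point. Tubb4b gave 41.3, 39.6, 39.4, 35.3 and 32.0%, with each KO library below both WT libraries, KO 1 by under 1 percentage point. The ratio of Tubb5 to Tubb4b was 0.710, 0.622, 0.758, 0.927 and 1.14. The Tubb5 split held on plain CPM and on length counted only in words of no other gene, and the Tubb4b split was lost on the latter, where KO 1 lay between the WT libraries. With Tubb1 and Tubb4a added to the pool the Tubb5 split held, and Tubb4b took 41.2, 37.3, 39.1, 34.9 and 31.4%, so that KO 1 again lay between the WT libraries. Tubb6 held 12.8 to 18.5% and Tubb2a 8.92 to 21.2%, in both cases with the extremes in the WT libraries.

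**Figure D5:**
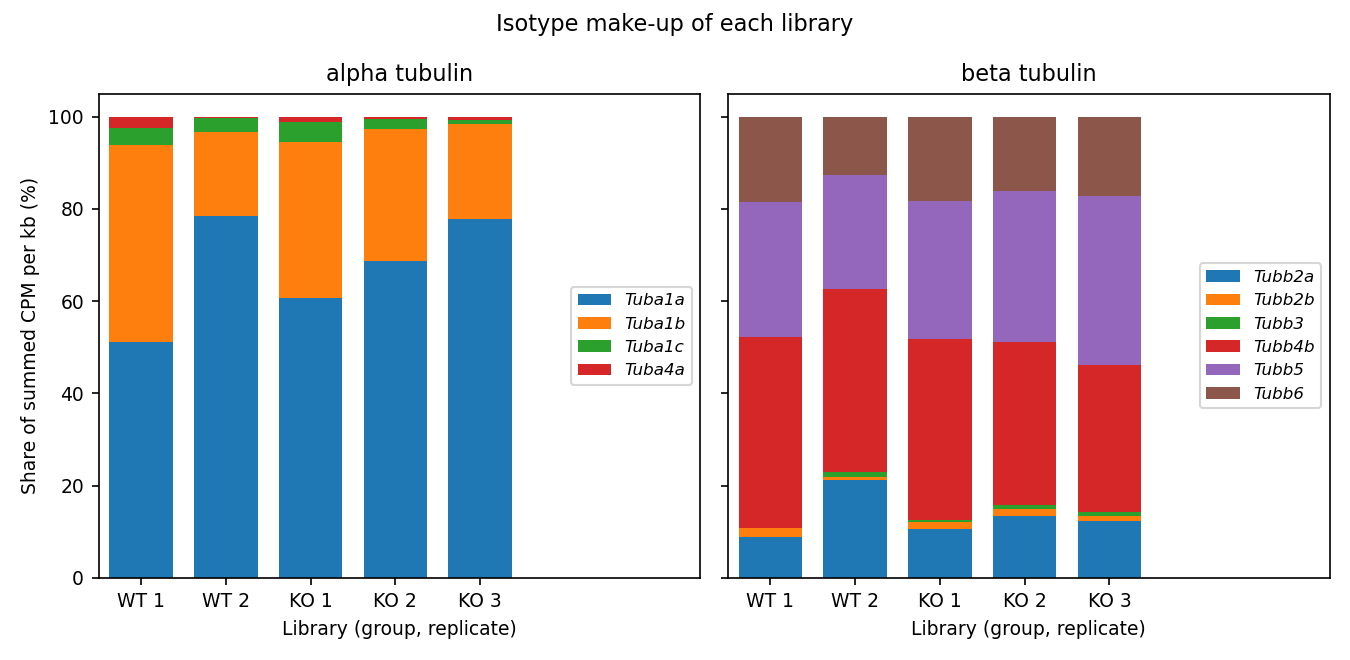
Share of each isotype in the alpha pool and in the beta pool of every library (percent of CPM per kilobase). Tuba1a takes 51.1 to 78.4% of the alpha pool, and Tubb4b and Tubb5 together take the largest part of the beta pool.

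Of the 7 other alpha and beta tubulin genes 4 were tested and 0 were called, and apart from Tubb1 in WT 2 they were low or without a read. Their median log2 fold change of 1.28 rested on single libraries. It was 0.88 without KO 3, where only 3 genes were tested. It was 5.59 without WT 1 and 5.05 without WT 2. There genes left with no WT read set it, and the fitted value depends on the prior count. Tubb4a, known from brain and myelinating cells, stood at 5.48, 3.10, 4.49, 18.2 and 20.1 CPM, with KO 1 inside the WT range (log2 fold change 1.74, SE 0.91; edgeR adjusted p = 0.819). Tubb1, the isotype of platelets and their precursors, had 0, 3436, 267, 99 and 248 reads, or 59.6 CPM in WT 2, above Tuba4a, Tubb2b and Tubb3 in that library, and at most 10.2 elsewhere. Pf4, a platelet gene picked after its values were seen, was likewise highest in WT 2, at 15.7, 116.8, 40.7, 14.9 and 34.5 CPM. Alas2, the next most abundant of the erythrocyte and platelet markers, went the other way, with 92.7 CPM in WT 1 and 2.60 in WT 2. Tuba8 had 0, 0, 95, 0 and 50 reads and Tuba3b 50, 0, 47, 85 and 37, levels at which single libraries decide any comparison. The KO mean of Tuba8 was at least 47.1-fold above a floor of 3 counts over the WT group, but 1 KO library also had 0 reads. Tubal3 had 1 read, in KO 2, and Tuba3a and Tubb2a-ps2 had none.

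The genes that fold tubulin lay mostly lower in KO. New tubulin chains pass from prefoldin to the CCT chaperonin, and cofactors A to E with Arl2 then join alpha to beta. Of 21 folding genes tested 19 had fold changes below 0, and in 13 every KO library lay below both WT libraries, against 11.1% of all genes. The median log2 fold change was -0.41 (-0.23 without WT 1, where it was 0.15 over all genes). Of the 21, 0 passed edgeR's adjusted threshold and 1 the unadjusted one, which 5.84% of all genes passed. All 8 CCT subunits and all 5 prefoldin subunits tested had values below 0, with medians of -0.31 and -0.72, and so had 6 of 8 cofactor and Arl2 genes. Pfdn1, a prefoldin subunit, stood at 148, 148, 95.1, 81.3 and 74.0 CPM (log2 fold change -0.83, SE 0.30; edgeR adjusted p = 0.810). Tbcb, cofactor B, stood at 162, 165, 117, 92.5 and 103 CPM (log2 fold change -0.65, SE 0.30). For both genes the WT libraries nearly coincided and each KO library lay lower. Fold changes across genes followed transcript length in these data, and with that trend removed the median of the folding genes was -0.21 against -0.11 over all genes, Pfdn1 had -0.44 and Tbcb -0.34.

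Genes of microtubule-binding proteins and of microtubule dynamics lay more often higher than lower in KO. Of 38 such genes tested 24 had fold changes above 0, against 49.4% of all genes, and in 9 the KO libraries were all above the WT libraries (13.5% of all genes). Their median was 0.32, 0 passed the adjusted threshold and 5 the unadjusted one (5.84% of all genes). With the length trend removed the median was 0.04, against -0.11 over all genes. Without WT 2 the median of the list was 0.50, against 0.25 over all genes. It was 0.20 without KO 1 and 0.21 without KO 2, against -0.05 over all genes in both cases. Map1b, a stabiliser known from growing axons, stood at 23.3, 24.1, 129.6, 243 and 90.2 CPM, so the lowest KO library was far above both WT libraries. Its log2 fold change was 2.70 (SE 0.54; edgeR adjusted p = 0.810), it was 2.64 without WT 1 and 2.73 without WT 2, and 1.28 with the length trend removed. In the authors' deposited table Map1b was called, with a log2 fold change of 2.17 (SE 0.47, adjusted p 0.00175). It was the only call among the 38 genes, where that table calls 1.43% of the 12872 genes to which it gives an adjusted p. Map4, the main such protein outside neurons, stood at 90.7, 144, 244, 339 and 232 CPM (log2 fold change 1.21, SE 0.39; edgeR adjusted p = 0.810), and 0.54 with the length trend removed. The sum of the 12 interstitial cell markers was likewise higher in each KO library, with 7 of the 12 above both WT libraries in all KO libraries and Vim highest in WT 2. The part of these cells in the values was not tested.

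The remaining tubulin genes gave 0 calls in each list. Of 13 genes of gamma tubulin and its ring complex, which nucleates microtubules, 6 had values above 0 (median -0.10). Cdk5rap2, which tethers that complex at centrosomes, stood at 1.56, 12.3, 35.0, 21.2 and 21.7 CPM, and Tubg2 at 1.71, 0, 7.77, 4.06 and 23.2. Only in these 2 of the 13 did every KO library lie above both WT libraries, a split found in 13.5% of all genes. The log2 fold change of Cdk5rap2 was 1.90 (SE 0.94; edgeR adjusted p = 0.812), and 0.58 with the length trend removed. Of 8 genes of tubulin mRNA autoregulation 4 were above 0 (median 0.04). Scaper, the link between TTC5 and the CCR4-NOT deadenylase, stood at 3.73, 6.15, 24.6, 9.08 and 18.5 CPM, above both WT libraries in each KO library. Its log2 fold change was 1.81 (SE 0.73; edgeR adjusted p = 0.810), and 1.38 with the length trend removed. Cnot1, the scaffold of that deadenylase, stood at 62.3, 69.9, 110.2, 156 and 83.4 CPM, likewise higher in each KO library (0.82, SE 0.39), but its log2 fold change was -0.25 with the length trend removed. Scaper and Cnot1 were the only 2 of the 8 that split this way, against 13.5% of all genes.

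Of 18 enzymes that modify tubulin 8 were above 0 (median -0.11). Without WT 1, however, the median was 0.58, with 13 of 20 above 0, against 0.15 over all genes. With limma-voom it was 0.50, with 11 of 18 above 0, against 0.07 over all genes. Ttll7, which adds glutamate to beta tubulin tails, stood at 1.83, 5.23, 7.61, 9.79 and 13.1 CPM, and Vash1, which removes the final tyrosine of alpha tubulin, at 1.26, 5.01, 18.3, 5.83 and 4.42 CPM. Every KO library of Ttll7 lay above both WT libraries, as in 13.5% of all genes, whereas the groups overlapped for Vash1. The log2 fold change of Ttll7 was 1.525 (SE 0.87; edgeR adjusted p = 0.841), and 0.70 with the length trend removed. Genes of motile cilia were hardly detected, with 10 of 18 listed rows tested and 3 without a read. Rsph1, a radial spoke gene, had 0, 0, 35, 38 and 70 reads, at least 45.4-fold higher in KO against a floor of 3 counts over the WT group. Dnaic2, a dynein arm gene, had 30, 115, 0, 0 and 0 reads, at least 51.5-fold lower in KO on the same basis. Rsph1 and Dnaic2 thus went opposite ways between the groups. Of the 10 tested, 1 had every KO library above both WT libraries and 1 below, against 13.5% and 11.1% of all genes. The median of the list was -0.52, and it was 3.83 without WT 2, where 12 genes were tested. For comparison, 15 actin and other cytoskeletal genes had a median of 0.06. In 1 of the 15, against 11.1% of all genes, every KO library lay below both WT libraries. That gene was Pfn1, at 604, 711, 458, 378 and 466 CPM. Capzb, an actin capping subunit, stood at 299, 525, 319, 321 and 269 CPM, high in WT 2 only. The median near 0 joined opposite values against each WT library. It was -0.58 without WT 1 (14 of 15 below 0), against 0.15 over all genes. Without WT 2 it was 0.80 (13 of 15 above 0), against 0.25 over all genes.

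The gene whose library pattern was most like summed tubulin was Kifap3, the adaptor subunit of the kinesin-II motor that moves Ift88-containing trains along ciliary microtubules. It stood at 52.4, 46.0, 57.6, 59.4 and 76.2 CPM, and differed from the tubulin sum by a root mean square of 0.033 on the centred log2 scale over the 5 libraries. The next were Itgb1, the beta 1 integrin, at 0.047 and C330006A16Rik at 0.060, out of 7224 genes of at least 20 CPM. With 5 libraries and so many candidates such likeness is a description of these libraries only.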

How the data were processed

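Total RNA of mitral leaflets was made into libraries with the SMART-Seq v4 kit, per the labels' protocols. Per the submitters' processing notes, the tools included DESeq2, HTSeq, cutadapt 1.11 and FastQC 0.11.5, and mm10 and GRCm38 are listed as builds. The aligner and annotation were not given in the sources used here. Raw counts per gene and library, as whole numbers, fill the first part of the deposited table. Per the file headers it also holds the authors' comparison, namely a mean signal of normalized counts, log2 fold changes and their errors, the test's score, and raw and adjusted p-values.

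Groups came from the titles, 2 WT and 3 KO. Replicates are numbered in accession order and pair nothing. Counts were fitted with edgeR 4.0.16 in R 4.3.3 (filterByExpr, TMM factors 0.837 to 1.073, robust two-sided quasi-likelihood F test, Benjamini-Hochberg over 14244 genes, median biological coefficient of variation 62.8%), after the code was tested on simulated data. The standard errors given with edgeR's fold changes were derived from the test. Each is the absolute log2 fold change divided by the square root of the F statistic. Lengths, exons and sequences are those of 1 GENCODE M21 transcript per gene, with 22750 of 24062 symbols matched. Alternatives were another normalization, filters, limma-voom 3.58.1, DESeq2 1.42.0, edgeR's likelihood ratio test, leaving out each library, the libraries with a shared title code, and removal of the trend of fold change on transcript length (lowess, span 0.3). Fits with 1 WT library hold no spread between WT libraries and assume that it varies like KO.

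The members and gene lists were chosen with earlier results of these data known. All members are named. From each of the 8 other pathway lists the 2 genes with the smallest unadjusted p are the ones named, plus the other tubulin genes with a row, and the 3 genes nearest in pattern to summed tubulin. Stk16, Fam166a and Pf4 were added after their values were seen, as were the alternatives for the other lists' medians and the beta pool with Tubb1 and Tubb4a. Protein sequences were not used here.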

Additional observations from a re-analysis of the deposited data

How the results depend on the processing

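The count of genes called was 0 with edgeR's quasi-likelihood test and 376 with DESeq2, 175 with DESeq2 and a prior on fold changes, 50 with edgeR's likelihood ratio test and 0 to 245 with 1 library left out, the highest being without WT 1. It was 0 with the other alternatives. No isotype passed in any of 140 values, the smallest adjusted p being 0.109 for Tubb3, and 123 kept their direction. The isotypes' median, 0.26, was 0.11 with the prior, 0.14 in the 3 libraries that share a title code, 0.46 with the length trend removed and 0.05 to 0.50 with 1 library left out. Medians over all genes were -0.11 with the length trend removed and 0.23 in the libraries with the shared code.

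Directions reversed as follows, and the cause was not tested. In the 3 libraries that share a title code the log2 fold change was -0.45 for Tuba1b, 0.68 for Tubb2a and -0.08 for Tubb2b. Without WT 2 it was -0.46 for Tuba1b, 0.64 for Tubb2a, -0.25 for Tubb2b and -0.002 for Tubb4b, and without WT 1 it was 0.04 for Tuba1c, 1.46 for Tuba4a and -0.35 for Tubb3. Without KO 1 it was 0.01 for Tubb2a and -0.05 for Tubb4b, and without KO 3 it was 0.05 for Tuba1c and 0.04 for Tubb2a. With limma-voom it was 0.17 for Tuba4a and 0.07 for Tubb2a, and Tubb2a was 0.26 with the length trend removed. With 1 library left out, values ran from -0.46 to 0.94 for Tuba1b, -0.81 to 0.05 for Tuba1c, -1.40 to 1.46 for Tuba4a, -0.48 to 0.64 for Tubb2a, -0.25 to 1.67 for Tubb2b and -0.05 to 0.22 for Tubb4b. For Tubb3 they ran from -0.35 to 11.58, the latter without WT 2, where no WT read is left and the fitted value depends on the prior count. Mean shares of the beta pool were 37.5% for Tubb4b, 30.6% for Tubb5 and 16.6% for Tubb6 per kilobase. On plain CPM they were 30.7% for Tubb4b and 41.3% for Tubb5, and per kilobase of words held by no other gene 52.5%, 19.0% and 10.4%. No paired analysis was possible because the replicate numbers come from accession order. Only 2 WT libraries enter each comparison, and the effect of depth was not tested.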

Other observations

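In WT 1, Tuba4a and Tubb2a had the same number of reads, 3004 each, although they differed in every other library. They lie on different chromosomes.

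Summed markers of other cells also varied between libraries. The 8 epicardial and mesothelial markers summed to 16.1, 15.1, 21.04, 268 and 45.1 CPM, highest in KO 2, where Tubb3 was the only isotype at its highest and none was at its lowest. The 9 smooth muscle markers summed to 3189, 728, 2234, 2453 and 4579 CPM. Like Tuba1a they were highest in KO 3, but WT 1, the lowest library for Tuba1a, was their next highest. The 14 macrophage and leukocyte markers, of which 13 had a row, summed to 226 to 482 CPM. The 13 Schwann cell and melanocyte markers summed to 262 to 531 CPM, with Cdh19 at 0 in every library. The 4 globin symbols among the 11 erythrocyte and platelet markers were at 0 in every library, and the list summed to 33.8 to 295 CPM. Tubb1 is itself among these markers and gave 59.6 of the 295 CPM in WT 2.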
